A study of Mus musculus with 7 samples.

Results

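The genes that encode the mouse receptors for immunoglobulin G (IgG) were followed in bone marrow with and without Aim2. They were chosen by name, with earlier results of these data known. The set holds the activating receptors Fcgr1, Fcgr3 and Fcgr4, the inhibitory receptor Fcgr2b, the signalling chain Fcer1g and the neonatal receptor Fcgrt. These are 6 of 35498 annotated genes with a transcript in the files, and all 6 were among the 14238 with enough reads to be tested. Messenger RNA of whole marrow from female mice aged 5 to 6 months was sequenced in 3 libraries labelled Aim2 knock out (KO) and 4 labelled wild type (WT). The labels give no other allele and no treatment for either group. They name neither the strain nor the part of Aim2 that was removed, and they leave unsaid whether each library is a separate mouse. The p-values therefore describe the spread between libraries, which may be technical. Aim2 encodes a sensor of DNA in the cytosol, and the study's title concerns fat cell formation in marrow after its loss.

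Fc gamma receptors bind the constant part of IgG and link antibodies to phagocytes, B cells, natural killer cells and mast cells. Fcgr1, Fcgr3 and Fcgr4 need the Fcer1g chain, whose activation motif (ITAM) is phosphorylated by Src family kinases and recruits the kinase Syk. Fcgr2b carries an inhibitory motif of its own, recruits the phosphatase SHIP1 (Inpp5d), and is the main Fc gamma receptor of B cells. Fcgrt, the neonatal Fc receptor, pairs with B2m, binds IgG inside acid vesicles and returns it to the blood. Fcgr1 and Fcgr4 are known targets of interferons in myeloid cells.

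The promoters of the 3 genes whose scaled reads separated the groups are shown first. They differ in the short motifs sought, of which the Fcgr2b window held none. They are RefSeq sequences of GRCm38.p6, from 250 bases before to 50 bases after the annotated start, printed 5′ to 3′ on the strand of the gene. Capitals mark matches to TTCNNNGAA (the GAS motif of interferon gamma responses), GAAANNGAAA (the core of the interferon-stimulated response element, ISRE) or GAGGAA (a core bound by PU.1, a myeloid and B cell factor), searched on both strands. The windows are chr3:96293920-96294219 (minus strand) for Fcgr1, chr1:171018676-171018975 (plus strand) for Fcgr4 and chr1:170976022-170976321 (minus strand) for Fcgr2b.
Fcgr1: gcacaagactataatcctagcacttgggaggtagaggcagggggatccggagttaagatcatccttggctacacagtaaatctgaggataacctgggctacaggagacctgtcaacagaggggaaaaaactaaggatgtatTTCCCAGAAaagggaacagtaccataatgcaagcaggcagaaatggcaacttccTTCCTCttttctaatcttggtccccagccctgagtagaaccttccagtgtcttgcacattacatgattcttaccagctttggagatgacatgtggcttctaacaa
Fcgr4: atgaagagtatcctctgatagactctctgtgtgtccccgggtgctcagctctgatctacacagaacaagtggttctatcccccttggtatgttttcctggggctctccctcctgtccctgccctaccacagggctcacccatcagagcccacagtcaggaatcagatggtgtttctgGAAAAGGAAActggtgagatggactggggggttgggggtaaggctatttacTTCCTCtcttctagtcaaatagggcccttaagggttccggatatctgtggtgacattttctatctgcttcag
Fcgr2b: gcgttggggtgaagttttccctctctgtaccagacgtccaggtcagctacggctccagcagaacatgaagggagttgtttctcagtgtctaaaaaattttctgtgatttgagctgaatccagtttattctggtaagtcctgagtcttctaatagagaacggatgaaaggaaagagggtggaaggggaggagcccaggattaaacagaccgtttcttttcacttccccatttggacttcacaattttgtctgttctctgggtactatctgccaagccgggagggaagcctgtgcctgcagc

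The Fcgr1 window held TTCCCAGAA, which reads as a match on both strands, beginning 109 bases before the start, and a reversed PU.1 core (TTCCTC) beginning 55 bases before it. In Fcgr4 the match was GAAAAGGAAA, beginning 73 bases before the start, with a reversed PU.1 core at 22 bases. A reversed PU.1 core also stood in both annotated Fcgr3 windows, while the Fcgr2b, Fcer1g and Fcgrt windows held none of these motifs. Among 32851 mouse promoters of this length 8.3% held the GAS letters, 3.44% the ISRE core and 28.3% the PU.1 core. A match describes these letters only, and binding was not measured.

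Depth was 20300468 to 21099972 estimated reads per library. Aim2 had 157, 47 and 59 reads in KO libraries 1 to 3 and 601, 573, 535 and 533 in WT libraries 1 to 4, in the direction of the labels. Its log2 fold change was -2.76 (adjusted p = 0.028 by the quasi-likelihood test of edgeR). Haemoglobin genes took 11.3 to 13.7% of reads in KO and 13.8 to 19.9% in WT. WT library 1 stood apart from the other WT libraries, with the highest haemoglobin share and the lowest level of Fcgr1, Fcgr2b, Fcgr3, Fcgr4, Fcer1g and Fcgrt among them.

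In CPM (scaled reads), Fcgr1 and Fcgr4 were each about 2-fold higher in KO marrow and Fcgr2b was lower, each without overlap between the groups. Fcgr3, Fcer1g and Fcgrt overlapped, and so did Fcgr2b in TPM, as given below. After adjustment over all genes by edgeR's quasi-likelihood test 0 of the 6 passed, beside 0.646% of all tested genes (0.478% higher and 0.169% lower). The unadjusted p was under 0.05 for 3 of the 6 (11.5% of all tested genes), the CPM ranges of the groups were apart for 3 (12.9%), and DESeq2 called 3 (2.65%). These are the same 3 genes, Fcgr1, Fcgr2b and Fcgr4. Because the members were chosen with earlier results of these data known, the shares of all genes beside them describe the set and do not test it. The median log2 fold change of all tested genes was -0.01, and 2.51% of them had a size of at least 1 on that scale.

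**Figure D1:**
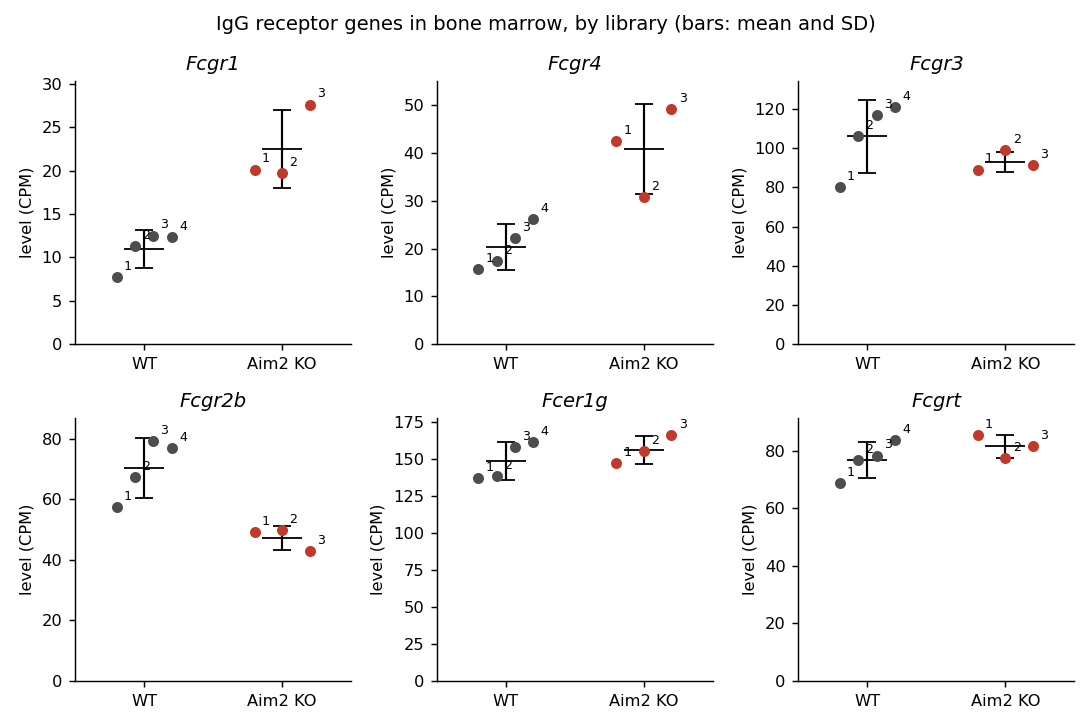
Level of each receptor gene in CPM (linear axis from 0) in each library, numbered as in the labels, with WT in grey and Aim2 KO in red and bars for the mean and SD (n = 4 and n = 3). Each KO library lies above each WT library for Fcgr1 and Fcgr4 and below each for Fcgr2b, and the groups overlap for Fcgr3, Fcer1g and Fcgrt.

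Fcgr1 encodes the high-affinity IgG receptor CD64 of monocytes, macrophages and dendritic cells. The gene (ENSMUSG00000015947.10) lies on the minus strand of chromosome 3 (96282909 to 96293969). Its levels, in reads per 1000000 of the scaled library (CPM), were 20.1, 19.7 and 27.6 in KO libraries 1 to 3. In WT libraries 1 to 4 its levels were 7.72, 11.3, 12.5 and 12.3 CPM. The lowest KO library lay above the highest WT library, and KO library 3 was the highest of all. The means were 22.5 ± 4.45 CPM (SD, n = 3) and 11.0 ± 2.23 CPM (SD, n = 4), a 2.04-fold difference. The log2 fold change was 1.03 ± 0.19 (SE, 95% interval 0.60 to 1.46), and it missed the threshold in edgeR's quasi-likelihood test (adjusted p = 0.0657, rank 114 of all genes by p). With genes of low count kept in the test the same fit gave an adjusted p of 0.0393, and DESeq2 gave an adjusted p of 5.75e-05.

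Fcgr4 encodes the receptor of intermediate affinity, which binds IgG2 subclasses on monocytes, macrophages and neutrophils. The gene (ENSMUSG00000059089.4) is on the plus strand of chromosome 1, from 171018920 to 171029761. Its KO levels were 42.5, 30.7 and 49.2 CPM and its WT levels 15.7, 17.3, 22.2 and 26.2 CPM. The groups did not overlap, although KO library 2 stood only slightly above WT library 4. Mean levels were 40.8 ± 9.38 CPM (SD over 3 KO libraries) and 20.3 ± 4.80 CPM (SD over 4 WT libraries). The log2 fold change of 1.00 ± 0.21 (SE, 95% interval 0.52 to 1.48) had an adjusted p of 0.0965 by edgeR's quasi-likelihood test and of 0.000321 by DESeq2.

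Fcgr3 encodes the low-affinity activating receptor CD16, found on natural killer cells, neutrophils, macrophages and mast cells. The gene (ENSMUSG00000059498.13) lies on the minus strand of chromosome 1 (171051174 to 171064935). KO levels were 89.1, 98.9 and 91.4 CPM, beside WT levels of 80.0, 106, 117 and 121 CPM. The KO values fell inside the range of the WT values, whose spread was set by WT library 1. The log2 fold change was -0.19 ± 0.14 (SE, 95% interval -0.51 to 0.13; adjusted p = 0.661, edgeR's quasi-likelihood test), so that a doubling like that of Fcgr1 and Fcgr4 lies outside its interval.

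Fcgr2b is the only one of the classical receptors that carries an inhibitory motif. The gene (ENSMUSG00000026656.15) lies on the minus strand of chromosome 1 (170958617 to 170976547). KO levels stood at 49.2, 49.7 and 42.8 CPM, and WT levels at 57.5, 67.2, 79.1 and 77.0 CPM. Each KO library was below each WT library, the nearest being WT library 1. Mean levels were 47.2 ± 3.84 CPM (SD over 3 KO libraries) and 70.2 ± 9.92 CPM (SD over 4 WT libraries), a ratio of 0.673. The log2 fold change was -0.57 ± 0.12 (SE, 95% interval -0.85 to -0.30), with an adjusted p of 0.098 by edgeR's quasi-likelihood test and of 0.00179 by DESeq2. Without WT library 1 the log2 fold change was -0.66 and the adjusted p of edgeR's test 0.039. A fit on length-scaled values, limma on log2(TPM + 0.1), gave a smaller -0.37 with an adjusted p of 0.47.

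Fcer1g supplies the ITAM for all 3 activating receptors and was the member with the most transcript. The gene (ENSMUSG00000058715.11) lies on the minus strand of chromosome 1 (171229572 to 171234365). KO libraries held 147, 155 and 166 CPM and WT libraries 137, 138, 158 and 161 CPM, with wide overlap. Its log2 fold change of 0.07 ± 0.08 (SE, 95% interval -0.12 to 0.27) had an adjusted p of 0.806 by edgeR's quasi-likelihood test.

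Fcgrt, which handles IgG inside cells and in mice is expressed by blood cells and endothelium, lies on the minus strand of chromosome 7 (ENSMUSG00000003420.8, 45092990 to 45103851). It stood at 85.4, 77.5 and 81.5 CPM in KO and at 68.7, 76.7, 78.3 and 83.6 CPM in WT. The groups overlapped, and the log2 fold change was 0.08 ± 0.08 (SE, 95% interval -0.10 to 0.27; adjusted p = 0.753, edgeR's quasi-likelihood test).

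Because CPM does not correct for transcript length, levels of different genes were compared in TPM. Fcer1g was the highest, at 355 ± 29.0 TPM (SD, n = 3) in KO and 307 ± 45.0 TPM (SD, n = 4) in WT. Next came Fcgr3, at 81.7 ± 0.932 TPM in KO and 85.9 ± 21.2 TPM in WT. Fcgr1 was the lowest, at 11.5 ± 3.02 TPM in KO and 4.70 ± 1.57 TPM in WT. This order of Fcer1g, Fcgr3 and, at the bottom, Fcgr1 held in all 7 libraries.

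The middle of the order differed between libraries. Fcgrt had 52.2 ± 5.34 TPM in KO and 44.9 ± 7.13 TPM in WT, and in WT it did not stand apart from Fcgr2b, which had 36.2 ± 2.35 TPM in KO and 47.3 ± 8.61 TPM in WT. Unlike its CPM, the TPM of Fcgr2b overlapped between the groups. It was 38.4, 36.4 and 33.7 in KO libraries 1 to 3 and 36.0, 45.9, 56.1 and 51.3 in WT libraries 1 to 4. Fcgrt was above Fcgr2b in every KO library and in WT library 2 alone of the WT libraries. Fcgr4, at 39.7 ± 10.8 TPM in KO and 18.0 ± 5.27 TPM in WT, was above Fcgr2b in KO libraries 1 and 3 and below it in KO library 2 and in every WT library.

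As a share of the summed TPM of Fcgr1, Fcgr2b, Fcgr3 and Fcgr4, the receptors that bind IgG at the cell surface, Fcgr4 took 23.2 ± 4.69% in KO and 11.5 ± 1.22% in WT. Fcgr1 took 6.76 ± 1.30% and 2.96 ± 0.553%, Fcgr2b 21.5 ± 2.49% and 30.7 ± 2.56%, and Fcgr3 48.5 ± 3.68% and 54.9 ± 1.95% (SD, n = 3 and n = 4). Fcgr3 was thus the largest share in every library, and Fcgr2b the next largest in the WT libraries but not in KO libraries 1 and 3. The sum itself was 169 ± 13.2 TPM in KO and 156 ± 35.8 TPM in WT, with overlap.

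**Figure D2:**
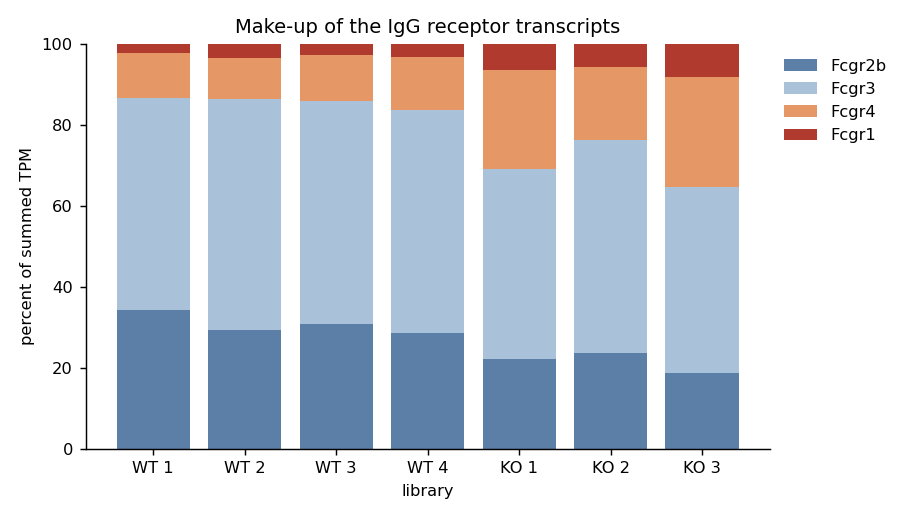
Percent of the summed TPM of Fcgr2b, Fcgr3, Fcgr4 and Fcgr1 (stacked, from bottom to top) in each library. Fcgr4 fills 10.2 to 13.1% of the bar in the WT libraries and 18.0 to 27.1% in the KO libraries, and Fcgr2b 28.5 to 34.3% and 18.7 to 23.6%.

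The balance of activating to inhibitory receptor transcript, the sum of Fcgr1, Fcgr3 and Fcgr4 divided by Fcgr2b in TPM, was higher in every KO library than in every WT library. It was 3.50, 3.24 and 4.34 in KO libraries 1 to 3 and 1.92, 2.42, 2.25 and 2.51 in WT libraries 1 to 4. The mean ratio was 3.69 ± 0.572 (SD, n = 3) in KO and 2.27 ± 0.260 (SD, n = 4) in WT. On the log2 scale the difference was 0.70, which is 1.62-fold, with an exact two-sided permutation p of 0.0571, the smallest that 3 against 4 libraries allow. The design therefore cannot bring this test under 0.05. The ratio is formed from members already reported above, chosen with earlier results of these data known, so its p-value is no further support.

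A set of 5 more ratios was added after the values were seen. Relative to Fcgr2b, Fcgr1 was 3.27-fold higher in KO than in WT, Fcgr4 2.87-fold and Fcgr3 1.26-fold. Fcgr4 relative to Fcgr3, its neighbour in the cluster, was 2.27-fold higher. Each of these 4 ratios separated the groups without overlap, with the same smallest p of 0.0571 in the exact permutation test (adjusted over the 6 ratios with the Benjamini-Hochberg method, 0.0685). The ratios were formed from genes whose values were already seen, and those over Fcgr2b share its values, so these p-values are no further support. Fcgr3 alone had a log2 fold change of -0.19. Activating receptors relative to their shared chain Fcer1g differed 1.08-fold, with overlap (exact permutation p = 0.514).

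**Figure D3:**
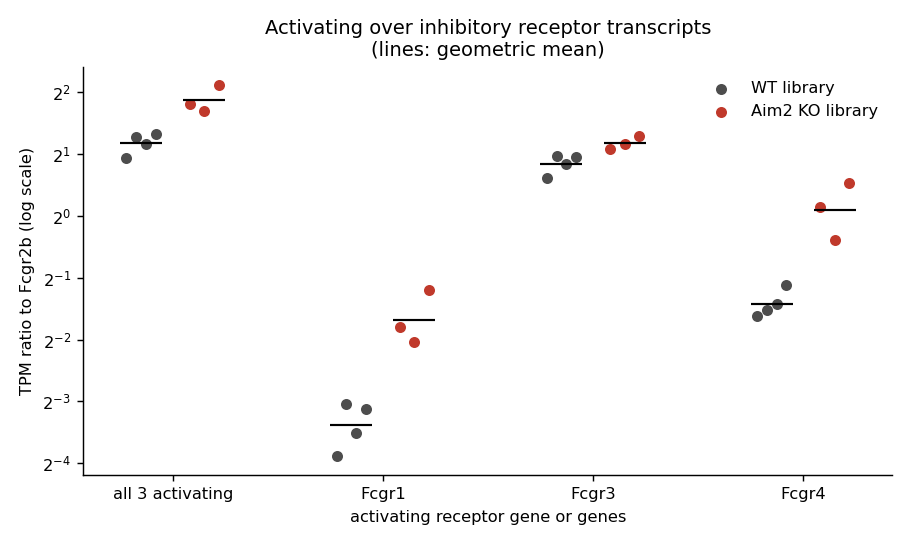
TPM ratio of all 3 activating receptor genes, or of each, to Fcgr2b in each library (log axis; lines mark the geometric mean; WT grey, n = 4, KO red, n = 3). KO libraries lie above WT libraries in each column, by 1.62-fold for the sum, 3.27-fold for Fcgr1, 1.26-fold for Fcgr3 and 2.87-fold for Fcgr4.

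At the level of transcripts, the members have 23 annotated forms, of which 18 had enough reads. By edgeR's quasi-likelihood test over 34507 transcripts 0 of the 18 passed, beside 0.0348% of all. For 7 of them the unadjusted p was under 0.05 (6.51% of all tested transcripts), and for 9 the reads of the groups were apart (9.16%). The split of reads between forms that share most of their sequence is the estimate of the quantifier. Fcgr4 has 1 annotated transcript, and 1 form dominated Fcer1g (98.9% of reads in WT) and Fcgr1 (97.6% in WT).

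Fcgr2b had the largest differences in make-up when shares were taken of reads. As shares of TPM, which weight short forms more, the main form of Fcgr1 differed as much (-11.7 percentage points, exact permutation p = 0.286, against -2.22 in reads). Fcgr2b is known for forms with or without an alternative exon in the part that encodes the cytoplasmic tail, the longer form being typical of B cells and the shorter of myeloid cells. That exon (GENCODE M21 on GRCm38, chr1:170963325-170963465, minus strand, coding in Fcgr2b-201) has 141 bases, and it is shown because the forms are told apart by it. Capitals mark the 57 bases that Fcgr2b-203 retains, while Fcgr2b-201 and Fcgr2b-204 hold all of it and Fcgr2b-202 none.
Fcgr2b alternative exon: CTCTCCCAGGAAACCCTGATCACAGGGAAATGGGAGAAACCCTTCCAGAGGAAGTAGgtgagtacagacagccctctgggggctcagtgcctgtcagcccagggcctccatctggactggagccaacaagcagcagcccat

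Fcgr2b-202, without the exon, was the largest form and took a like share of the gene's reads in both groups, 52.2 ± 1.17% in KO (SD, n = 3) and 51.6 ± 3.76% in WT (SD, n = 4). Fcgr2b-201, with the exon, was assigned 200, 194 and 155 reads in KO, against 267, 437, 535 and 524 in WT. Its share was 18.1 ± 1.46% in KO and 30.4 ± 3.71% in WT, without overlap, a difference of -12.3 percentage points that was -5.24 as a share of the gene's TPM. The log2 fold change of Fcgr2b-201 was -1.33 ± 0.24 (SE), with an adjusted p of 0.207 in the edgeR fit over transcripts.

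Fcgr2b-204 had more reads in every KO library than in any WT library. It has the same 8 coding exons as Fcgr2b-201, with 1020 coding bases, but begins with 2 exons upstream and ends in a shorter last exon of 332 bases against 2484. Reads assigned to it numbered 129, 132 and 141 in KO, against 0, 28.2, 29.1 and 0 in WT. A count of 0 allows up to 3 reads, or 0.280% and 0.186% of the gene's reads in WT libraries 1 and 4, in counting error alone. Its share was 13.3 ± 1.42% in KO and 0.953 ± 1.11% in WT. The log2 fold change of 3.17 ± 1.24 (SE) had an unadjusted p of 0.0373 and an adjusted p of 0.732 in edgeR's quasi-likelihood test.

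Summed over coding forms in TPM, a grouping added after the values were seen, forms with the whole exon made up 25.1 ± 0.470% in KO and 18.4 ± 3.58% in WT, and Fcgr2b-202 70.1 ± 1.34% and 77.6 ± 4.59%. Neither overlapped between the groups (exact permutation p = 0.0571 for each, the smallest possible). As a share of the gene's reads, forms with the whole exon did not show this difference. They took 31.4, 31.5 and 31.4% in KO and 24.9, 33.5, 34.5 and 32.6% in WT, so that WT libraries 2 to 4 lay above every KO library and WT library 1 below (difference 0.0384 percentage points, exact permutation p = 0.914).

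Fcgr3 differed less, between forms that differ at the start of 1 coding exon (chr1:171057691-171057948, minus strand, in Fcgr3-201). The junction is printed with the preceding exon on its left, and capitals mark the 3 bases that Fcgr3-204 lacks, which lengthen the coding sequence from 798 to 801 bases.
Fcgr3-201: aggcagagtgCAGctcttccgaa
Fcgr3-204: aggcagagtgctcttccgaa

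The shorter form Fcgr3-204 took 17.0, 15.9 and 18.5% of the gene's reads in KO, against 14.0, 11.1, 8.06 and 12.9% in WT. Means were 17.1 ± 1.33% (SD, n = 3) and 11.5 ± 2.59% (SD, n = 4), without overlap. Fcgr3-201 had the complement, 82.7 ± 1.27% and 87.6 ± 2.62%. For these shares and those of Fcgr2b-201 and Fcgr2b-204 the exact permutation p was 0.0571 (0.143 after Benjamini-Hochberg adjustment over 10 shares). In Fcgrt the main forms Fcgrt-201 and Fcgrt-203 took 77.4 ± 2.02% and 19.5 ± 1.01% in KO against 80.9 ± 2.56% and 17.4 ± 1.47% in WT, with overlap.

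**Figure D4:**
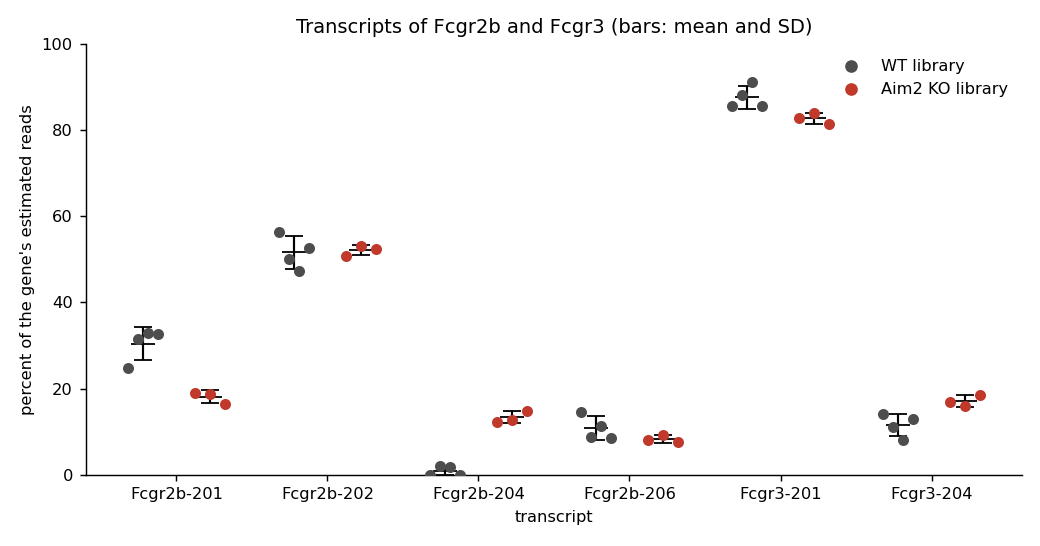
Percent of the estimated reads of Fcgr2b or Fcgr3 assigned to each of 6 transcripts (WT grey, n = 4, KO red, n = 3; bars for mean and SD). Fcgr2b-201 averages 30.4% in WT and 18.1% in KO, Fcgr2b-204 0.953% and 13.3%, and Fcgr3-204 11.5% and 17.1%, each without overlap.

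The sequences of Fcgr2b and Fcgr3 are partly alike, which bears on how reads were divided between these genes. Of all stretches of 31 bases, 233 occur in both, which is 17.69% of Fcgr3-201 and 16.27% of Fcgr2b-202. Fcgr2b-201 shares 14.94% of its stretches with other genes, 6.63% with Fcgr3, so its reads can also be divided with genes outside the members. Fcgr1, Fcgr4 and Fcer1g share no such stretch with another member, so their values do not depend on this split.

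Fcgr2b, Fcgr4, Fcgr3 and Fcer1g lie in this order within 276 kb of chromosome 1, the chromosome of Aim2, which starts 2.12 Mb beyond Fcer1g. The log2 fold changes along the cluster were -0.57, 1.00, -0.19 and 0.07, so that Fcgr4 and the receptor genes on either side had values of opposite sign. Of 5 tested genes between members, Cfap126, a gene of motile cilia, rose (log2 fold change 1.30 ± 0.21, SE; adjusted p = 0.0480 by edgeR's quasi-likelihood test), as did Pcp4l1 (0.98 ± 0.17, SE; adjusted p = 0.0497 by the same test). Sdhc, a subunit of succinate dehydrogenase, was at 0.05 and Tomm40l, of the mitochondrial import pore, at -0.15.

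Within 500 kb on either side of the cluster 30 other genes were tested, and 3 were higher and 0 lower in KO by edgeR's test, beside 0.646% called among all genes. The third was Itln1, named after its values were seen, with 48, 25 and 31 reads in KO against 0, 1, 0 and 0 in WT. The CPM ranges of the groups were apart for 14 of the 30 (12.9% of all tested genes), and their median log2 fold change was -0.02. When a library was left out the 3 calls became 0 (without WT library 2), 1 (without KO library 1 or 2 or WT library 1, 3 or 4) or 2. The background on which the Aim2 allele was made is not given in the labels, and whether the region differs in sequence between the groups was not tested.

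**Figure D5:**
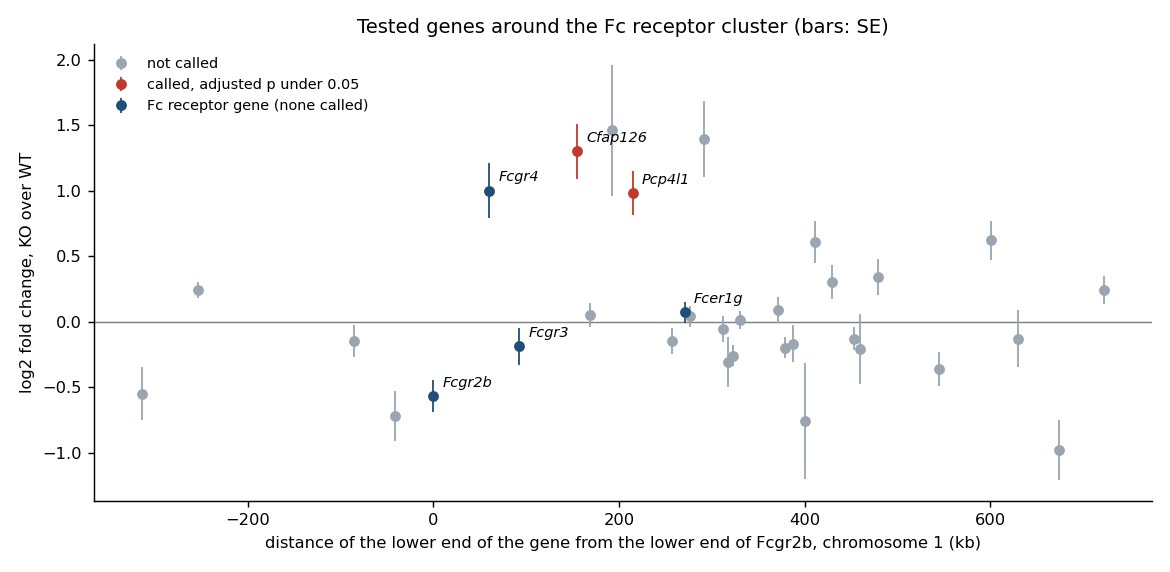
Log2 fold change (KO over WT, bars for SE) of tested genes against the distance in kb of each gene from Fcgr2b along chromosome 1, with receptor genes in blue and called neighbours in red. Fcgr4 at 1.00 lies between Fcgr2b at -0.57 and Fcgr3 at -0.19, and Itln1, with 0 or 1 reads in WT, is not drawn.

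The ligands of these receptors are IgG molecules, whose heavy chains are encoded by Ighg1, Ighg2b, Ighg2c and Ighg3. Of these 4, 1 rose and 0 fell by edgeR's test (unadjusted p under 0.05 for 3, DESeq2 3). Their median log2 fold change was 2.25. The one that rose was Ighg2c, from 90.0 ± 37.4 CPM in WT (SD, n = 4) to 708 ± 349 CPM in KO (SD, n = 3; adjusted p = 0.0352, edgeR). Ighg2b stood at 538 ± 105 CPM in KO against 187 ± 93.0 CPM in WT, without overlap (adjusted p = 0.158, edgeR). Ighg1 and Ighg3 overlapped between the groups, with log2 fold changes of 3.97 and 0.87, and 54792 of the Ighg1 reads were in KO library 2. Reads of these similar genes are divided by the quantifier, so values of single subclasses are uncertain. Beside them, 6 plasma cell markers, of the cells that secrete IgG, all had positive log2 fold changes with a median of 0.53. By edgeR's test 0 of the 6 passed (unadjusted p under 0.05 for 5, DESeq2 2), and their summed level was 687 to 853 CPM in KO and 426 to 649 CPM in WT, without overlap. Their part in the levels of IgG transcripts was not tested.

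Of 14 genes for other immunoglobulin receptors and Fc receptor-like proteins 9 were tested and 0 passed by edgeR's test, although the unadjusted p was under 0.05 for 7 and DESeq2 called 7. Their median log2 fold change was -0.52. Those expressed by B cells had negative values, -1.56 for Fcer2a (the IgE receptor CD23; adjusted p = 0.0812), -1.13 for Fcmr (the IgM receptor), -0.83 for Fcrl1 and -0.72 for Fcrla, except Fcrl5 at 1.79 (edgeR). B2m, the partner chain of Fcgrt, had 0.49 ± 0.15 (SE; adjusted p = 0.248, edgeR) and Trim21, which binds IgG in the cytosol, 0.44 ± 0.09 (SE; adjusted p = 0.0841, edgeR). The subunits of the high-affinity IgE receptor Fcer1a and Ms4a2 overlapped, at -0.52 and 0.14. Pigr, Fcrl6, Fcrlb and Fcrls fell under the filter on low counts, and Fcamr had 0 reads in each library.

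Genes that act downstream of the activating chain showed small differences. Of 28 ITAM signalling genes 0 passed by edgeR's test (unadjusted p under 0.05 for 6, DESeq2 0), with a median log2 fold change of 0.05. The Src family kinase Fgr had the smallest p, at 0.45 ± 0.13 on the log2 scale (SE), with an adjusted p of 0.234 by edgeR. For the 6 subunits of the phagocyte oxidase, which makes superoxide after receptor engagement, the median was 0.21 and 0 passed (unadjusted p under 0.05 for 2, DESeq2 0), with 0.31 for Ncf4 and 0.38 for Cybb. Other receptors that use the Fcer1g chain gave 0 of 8 past edgeR's test (unadjusted 3, DESeq2 0) and a median of 0.31, with 0.51 for Oscar and 0.68 for Tarm1.

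A list of phosphatases and other signalling regulators, among them Inpp5d, gave 0 of 11 by edgeR's test. It had 0 at an unadjusted p under 0.05 and 0 by DESeq2, and a median log2 fold change of 0.08. Ptprc and Dok2 had the smallest p, at 0.21 and 0.22. Signalling chains of receptors other than Fcer1g gave 0 of 8 by edgeR's test (unadjusted 3, DESeq2 2), with a median of -0.30. The lowest among them were Cd79a and Cd79b, the signalling chains of the B cell receptor, at -0.98 ± 0.19 and -0.95 ± 0.19 (SE; adjusted p = 0.0826 and 0.0868, edgeR).

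Most of the listed interferon-responsive genes had positive log2 fold changes, as Fcgr1 and Fcgr4 did. Of 25 interferon-stimulated genes 18 rose and 0 fell by edgeR's test, with a median log2 fold change of 0.98, and these lists were made with that result known. Usp18, an Isg15 protease, rose by 1.30, the RNA sensors Oas1a and Oas2 by 1.80 and 2.09, and the helicase Dhx58 by 0.98 on the log2 scale. Of 14 genes responsive to interferon gamma 3 rose and 0 fell, with a median of 0.57, the 3 being the GTPases Iigp1 (0.99), Igtp (0.64) and Irgm1 (0.75). The unadjusted p of edgeR's test was under 0.05 for 13 of the 14 (DESeq2 called 7). Of these 13, 12 were higher and 1 lower, Ciita at -0.63.

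Genes whose pattern over the 7 libraries was most like that of a member were sought among 10872 genes with at least 5 CPM, by the root mean square difference of centred log2(CPM + 0.5) values, where a small value means a like pattern. For Fcgr1 these were Chst1 (0.125), Ly6a (0.138) and Iigp1 (0.152), against a median gene at 0.581. For Fcgr4 they were Iigp1 (0.153), Fcgr1 (0.18) and Cxcl9 (0.191), against 0.589. Fcgr2b was nearest to A430078G23Rik, Gimap5 and Gpr18 (0.123 to 0.125, median 0.337), Fcgr3 to Prkd2, Nab2 and Serpinb6b, Fcer1g to Pip4p2, Sec24b and Riox1, and Fcgrt to Cnksr3, Mtpn and Sco1.

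Markers of cells that carry these receptors were compared in the same way, and in whole marrow fewer cells of a type and less RNA per cell cannot be told apart. Of 7 markers of nonclassical monocytes, which carry much Fcgr4, 1 rose and 0 fell by edgeR's test, and their summed level was 429 to 483 CPM in KO and 311 to 382 CPM in WT, without overlap. All 7 had positive log2 fold changes, with a median of 0.43, the unadjusted p was under 0.05 for 6, and DESeq2 called 3. The one that rose was Cd300e (log2 fold change 2.41), Ace and Nr4a1 were at 0.90 and 0.79, and Spn, Itgal and Cx3cr1, the most abundant over all libraries, were at 0.20, 0.40 and 0.01. For 7 classical monocyte markers 1 rose (Vcan) and 0 fell (unadjusted 4, DESeq2 2). All 7 of these also had positive log2 fold changes, with a median of 0.31. Their summed level was 2544 to 2861 CPM in KO and 1750 to 2747 CPM in WT. Macrophage markers gave 0 of 10 by edgeR's test (unadjusted 0, DESeq2 0), with 1193 to 1610 CPM in KO and 896 to 1659 CPM in WT. Neutrophil markers gave 0 of 10 (unadjusted 3, DESeq2 1), with 17199 to 19283 CPM in KO and 13567 to 17324 CPM in WT. Log2 fold changes were positive for 8 of the macrophage markers (median 0.13) and 9 of the neutrophil markers (median 0.25).

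Of 8 B cell markers, 0 passed by edgeR's test but the unadjusted p was under 0.05 for all 8, and DESeq2 called 5. Of these 7 had log2 fold changes under 0, as Fcgr2b did, with a median of -0.93 over the list. Cd79a and Cd79b were at -0.98 and -0.95, while Ighm, at 0.74, carried most of the summed level of 4463 to 4982 CPM in KO and 1725 to 4376 CPM in WT. Natural killer cell markers summed to 76.1 to 84.9 CPM in KO and 58.1 to 76.4 CPM in WT, and mast cell and basophil markers to 368 to 602 and 363 to 450 CPM, with 0 of 7 and 0 of 8 past edgeR's test (unadjusted 2 and 1, DESeq2 0 and 0). No defining marker of the cell types named here was at 0 in all libraries. The part of cell numbers in the values of the receptors was not tested.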

How the data were processed

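Whole bone marrow RNA was sequenced in 3 KO and 4 WT libraries with a strand-specific kit, per the labels' protocols. Reads were checked with FastQC 0.11.9 and transcripts quantified with Salmon 1.7.0 on GRCm38.p6, and DESeq2 is also named, per the submitters' processing notes. The transcript release and options used are not given in the sources used here. Each file holds 1 library. The authors deposited estimated counts per transcript, not normalized, and TPM values, scaled for effective length and library total, per the file headers. Of 116546 transcripts, 569 had no gene in GENCODE M21 (at most 0.0662% of reads) and were left out, and 192 were joined without their version number. Summing these estimated counts per gene, then rounding, gave the gene table.

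Genotype was tested with edgeR 4.0.16 in R 4.3.3 (filterByExpr, TMM scaling, quasi-likelihood test, Benjamini-Hochberg adjustment over all 14238 genes, threshold 0.05). Fold changes are KO over WT, and SE is the size of the log2 fold change over the root of the F statistic. Ratios and shares were compared by exact two-sided permutation of libraries. On simulated counts for these 14238 genes the KO against WT test called 72% of 100 genes changed 2-fold and 90% of 100 changed 4-fold, and 4.71% of 170 calls were false. Alternatives were DESeq2 1.42.0, other scalings and filters, a length offset, limma 3.58.1 on log2(TPM + 0.1) and log2(TPM + 1), a block for sample number, and leaving out each library.

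The members and the 25 gene lists were chosen with earlier results of these data known. Named genes were the members, Aim2, all IgG constant region genes and other immunoglobulin receptors, the genes with the smallest p of each pathway list (up to 4 called, or 2 where none was), up to 3 of the most abundant markers of a marker list, tested genes between members, and the 3 genes of most like pattern per member. Some genes covered by this rule are not reported here. Genes outside it (Ace, Nr4a1, Cd300e, Vcan, Inpp5d, Itln1, Ciita) were chosen after their values were seen. Coordinates count from 1 on GRCm38. Estimated reads are not independent molecules, so limits from a count of 0 cover counting error only.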

Additional observations from a re-analysis of the deposited data

Results flagged for a closer look

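WT library 1 lay far from the other WT libraries in a pair of values. The ratio of Fcgr1, Fcgr3 and Fcgr4 to Fcer1g in TPM was 0.28 there and 0.368 to 0.377 in WT libraries 2 to 4. Fcgr2b-201 took 24.9% of the Fcgr2b reads in WT library 1 and 31.5 to 32.8% in the others. Among 29 groups of values checked, 2 stood out in this way, and chance gives about 1 in 20. This library also had the highest share of haemoglobin reads (19.9%), and the part of that share in these values was not tested.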

How the results depend on the processing

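The signs of the log2 fold changes of all 6 members held in each of the 15 alternative fits. DESeq2 called Fcgr1 (1.03, adjusted p = 5.75e-05), Fcgr2b (-0.57, 0.00179) and Fcgr4 (1.00, 0.000321), thus 3 members, and edgeR without the filter on low counts called 1, Fcgr1 (1.03, adjusted p = 0.0393). Limma on log2(TPM + 0.1) called 0 members, with 1.32 for Fcgr1 (adjusted p = 0.21), 1.15 for Fcgr4 (0.202) and -0.37 for Fcgr2b (0.47). Limma on log2(TPM + 1) also called 0, with 1.16 (adjusted p = 0.183), 1.10 (0.192) and -0.36 (0.463) in that order. With each library left out, edgeR called 0 to 1 members. The 1 was Fcgr2b without WT library 1 (-0.66, adjusted p = 0.039). The ranges were 0.85 to 1.12 for Fcgr1 (adjusted p = 0.0739 to 0.184), -0.66 to -0.51 for Fcgr2b (0.039 to 0.263) and 0.84 to 1.17 for Fcgr4 (0.0886 to 0.272). Of all genes 398 were called by DESeq2, 56 with the length offset, 49 and 50 by limma on log2(TPM + 0.1) and log2(TPM + 1), and 17 to 65 with a library left out, against 92. The limma fits moved the median of all genes to 0.13 and 0.10, with 87.8 and 90.0% of calls higher against 73.9%. Of listed genes 25 were called, 57 by DESeq2 and 8 to 21 with a library left out. Neighbours called were 5 within 1 Mb and 0 to 2 with a library left out, against 3. The difference in the share of Fcgr2b-202, 0.523 percentage points, was -1.16 in TPM and -0.884 without WT library 3 (range -0.884 to 2.07), and that of Fcer1g-201, 0.123, was -0.267 in TPM. The percent of Fcgr2b coding TPM without the alternative exon, -7.55 points, was 0.523 as a share of reads, and that with it, 6.72, was 0.0384. The log2 ratio of activating receptors to Fcgr2b was 0.58 to 0.79 with a library left out. The causes were not tested.

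Samples of the 2 groups share numbers in their titles. Deviations of same-numbered libraries from their group means correlated at 0.124, -0.041 and -0.271, and those of differently numbered libraries at -0.231 to 0.261. Not every library correlated best with its own number. With so few libraries these correlations cannot decide whether the numbers mark pairs. With a replicate block edgeR called 21 genes, 14 of them among the 92, 10 listed genes and 0 members (Fcgr1 1.10, adjusted p = 0.0708; Fcgr4 1.14, 0.0666; Fcgr2b -0.52, 0.314).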
